A study of Mus musculus with 12 samples.

Results

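The 6 genes described here, Nos2, Ass1, Asl, Gch1, Slc7a2 and Acod1, carry arginine into macrophages, turn it into nitric oxide, recycle citrulline, or make itaconate. They were chosen by name for these roles, and all 6 were found among the 43131 genes of the count table. For each, the transcript with the highest total count was taken. The data came from bone marrow-derived macrophages (BMDMs) of C57BL/6 mice in 12 RNA-seq libraries, 3 in each of 4 groups. Cells were grown for 7 days with 50 ng/mL M-CSF and were then left unstimulated or given 1 µg/mL lipopolysaccharide (LPS), the ligand of TLR4, for 6 h. All groups carried floxed tlr4 alleles, and tlr4f/f-lysM-cre cells also carried Cre recombinase at the lysozyme M (Lyz2) locus, which is active in macrophages and also in neutrophils. The study asked how deletion of tlr4 in macrophages altered the response to LPS. By heading, the tlr4f/f genotype has a group without LPS, written LPS- f/f here, and another with it, LPS+ f/f, and the tlr4f/f-lysM-cre genotype likewise has LPS- cre and LPS+ cre. The ages of the mice, and whether each library came from a separate mouse or culture, are not given in the sources used here, so p-values measure the spread between these libraries, which may be technical.

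Macrophages activated by microbial ligands take up arginine through the cationic amino acid transporter CAT2, the product of Slc7a2, and inducible nitric oxide synthase, the product of Nos2, converts it into nitric oxide and citrulline. The synthase needs tetrahydrobiopterin, whose synthesis begins with GTP cyclohydrolase, the product of Gch1, while argininosuccinate synthase (Ass1) and argininosuccinate lyase (Asl) rebuild arginine from citrulline. Acod1 (also called Irg1) diverts cis-aconitate from the citric acid cycle into itaconate, a metabolite for which activated macrophages are known.

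The headings of LPS- cre and LPS+ f/f went against the genes that mark genotype and treatment. Tlr4, the targeted gene, had 115 CPM (counts-per-million, scaled by TMM) in the libraries headed LPS- f/f and 110 CPM in those headed LPS- cre, but 27.7 CPM under LPS+ f/f and 25.6 CPM under LPS+ cre. Lyz2, the locus that holds Cre, was at 13110, 7587, 11.8 and 62.3 CPM in the same order. The cytokine genes Il1b (3.70, 4224, 3.21 and 2600 CPM), Tnf (33.8, 2719, 30.5 and 1115 CPM) and Il6 (0.463, 740, 0.210 and 192 CPM), which LPS induces, were high in the libraries headed LPS- cre and low in those headed LPS+ f/f. Groups are therefore named by their headings throughout, and each comparison is also read with those of LPS- cre and LPS+ f/f exchanged. Exchange leaves every value as it is and alters only the name of the comparison.

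Kept counts per library were between 33577087 and 56445268. Spread within a group was wide in both groups headed LPS- (biological coefficient of variation 37.3% for f/f and 34.9% for cre) and narrow in both headed LPS+ (8.51% and 8.73%). All 10 macrophage markers were detected in every group, with a summed level of 14020 to 29860 CPM in LPS- f/f, 18810 to 22340 CPM in LPS- cre, 4614 to 5022 CPM in LPS+ f/f and 7887 to 8241 CPM in LPS+ cre. Lyz2 is among them, with means of 13110, 7587, 11.8 and 62.3 CPM in that order, so these sums depend heavily on it. The median log2 of the 10 was 0.89 in LPS- cre against LPS- f/f (6 of 10 higher). It was 0.485 in LPS+ cre against LPS+ f/f (7 of 10 higher, of which 3 were called, and 1 called lower). In LPS+ against LPS- cre it was -0.75 (1 of 10 higher), and all 3 medians had the direction of the members. The 10 stromal markers summed to 13.7 to 814 CPM in LPS- f/f and 212 to 1787 CPM in LPS- cre, against 27.1 to 34.9 CPM and 55.0 to 70.4 CPM in the groups headed LPS+. They moved in the direction of the members: 2 of 10 were called higher in LPS+ cre against LPS+ f/f (median log2 0.64) and 3 of 10 lower in LPS+ against LPS- cre (median -3.80), while in LPS- cre against LPS- f/f the median was 2.14 with none called and 1 higher at an adjusted p below 0.05. By that threshold with no limit on fold, 9 of 10 were lower in LPS+ against LPS- cre, beside 14.2% of all genes. The median of the members there was -1.05. In LPS+ against LPS- f/f the stromal median was -2.88 with none called, where that of the members was -0.24. The 10 neutrophil markers summed to 192 CPM in replicate 3 of LPS- cre and to at most 27.9 CPM in every other library. Between the groups headed LPS+, 2 of 6 tested were called higher in cre and 2 lower (median log2 -0.12). Their median was 3.02 in LPS- cre against LPS- f/f and -3.55 in LPS+ against LPS- cre, the direction of the members, with none called in either. The 6 dendritic cell markers also moved with the members: they summed to 0.224 to 0.770 CPM in LPS- f/f, 4.75 to 13.1 CPM in LPS- cre, 0.447 to 0.733 CPM in LPS+ f/f and 2.90 to 3.73 CPM in LPS+ cre, with 1 of 2 tested called higher between the groups headed LPS- and 2 of 3 between those headed LPS+, while Flt3 and Siglech had at most 2 counts in any library. Of 8 endothelial markers, 1 of 4 tested was called higher in cre between the groups headed LPS- (Pecam1, 0.237 against 3.16 CPM in the means) and 2 of 5 between those headed LPS+ (Pecam1 and Kdr), while their sums, 36.9 to 90.1 CPM in LPS- f/f, 68.4 to 166 CPM in LPS- cre, 109 to 119 CPM in LPS+ f/f and 86.8 to 95.8 CPM in LPS+ cre, did not follow the members. Within these sums, Vwf (means of 60.0, 31.5, 109 and 76.9 CPM in that order) went against the members and Kdr (11.3, 64.7, 4.16 and 10.3 CPM) with them. The median log2 of the endothelial markers tested was 2.65 between the groups headed LPS- (3 of 4 higher in cre). Between those headed LPS+ it was -0.33 (2 of 5 higher). The libraries headed LPS- f/f differed from each other. Summed over 8 LPS response genes, replicates 1, 2 and 3 had 248, 340 and 22.4 CPM, where those headed LPS+ f/f had 48.8 to 55.0 CPM. Their stromal markers summed to 814, 74.1 and 13.7 CPM in the same order. Beside these counts of markers called, 9.25% of all genes tested were called higher in cre between the groups headed LPS-. The shares were 10.8% higher and 10.9% lower between those headed LPS+, and 3.65% lower in LPS+ against LPS- cre. In such bulk RNA, fewer cells of a type and less RNA per cell cannot be told apart, and the part that other cells had in the values below was not tested.

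Of the 6 members, 5 were called higher in the cre group both among the libraries headed LPS- and among those headed LPS+, and Asl stayed within a narrow range (the plot of members by library). The count among the libraries headed LPS- was 2 to 5 without single libraries. It was 2 without a filter on low counts, where Nos2, Ass1 and Slc7a2 lost their calls. Among the libraries headed LPS+ the count stayed at 5 in these fits. Relative to LPS- f/f, the libraries headed LPS- cre had 5 of the 6 members higher (more than 2-fold, at an adjusted p below 0.01), namely Slc7a2, Nos2, Gch1, Ass1 and Acod1, beside 9.25% of the 14635 genes tested. As headed this compares genotypes without LPS, and with the headings exchanged it is the effect of LPS in tlr4f/f cells. Among the groups headed LPS+, the libraries headed cre again had 5 of 6 members higher than those headed f/f, beside 10.8% of 14540 genes. This is the difference between genotypes under LPS as headed, and the effect of LPS in tlr4f/f-lysM-cre cells with the headings exchanged.

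**Figure D1:**
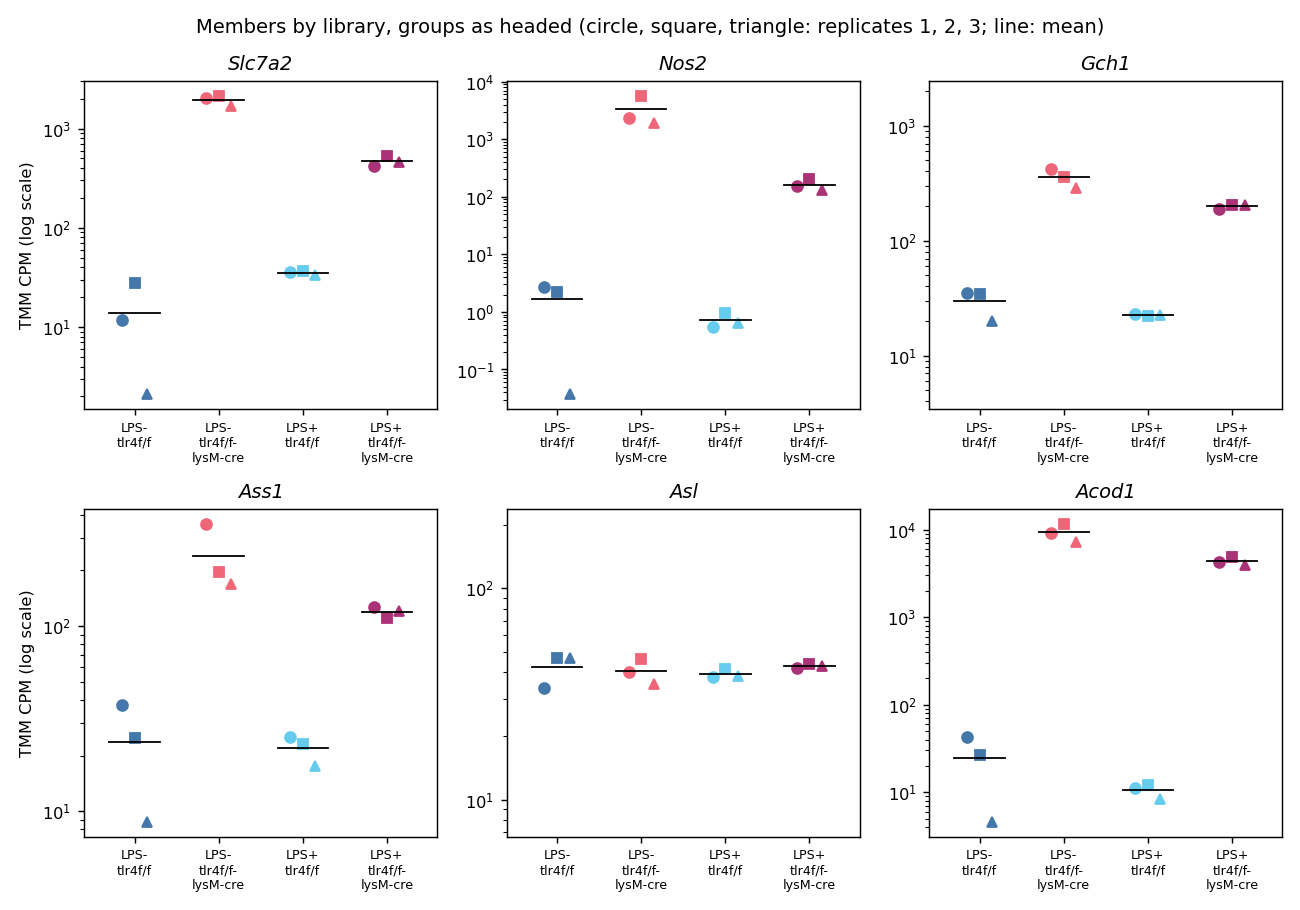
Level of each member in the 12 libraries, with the 4 groups as headed on the horizontal axis and TMM CPM on a logarithmic vertical axis; circles, squares and triangles are replicates 1, 2 and 3 and the line is the mean of 3. All members but Asl are highest in the libraries headed LPS- cre, and Asl lies between 33.9 and 46.8 CPM in every library.

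The comparison of LPS+ cre with LPS- cre is the effect of LPS in tlr4f/f-lysM-cre cells as headed, and that of tlr4f/f-lysM-cre against tlr4f/f under LPS with the headings exchanged. Here 2 of 6 members, Nos2 and Slc7a2, were lower, beside 3.65% of 14234 genes. By an adjusted p below 0.05 with no limit on fold, 5 of 6 members were lower, all but Asl, beside 14.2% of genes. This count rested on all libraries headed LPS+ cre, since without any single one of them Ass1 (adjusted p = 0.123 to 0.146), Gch1 (0.0615 to 0.0681) and Acod1 (0.0524 to 0.0673) missed 0.05, and with all 12 libraries in 1 fit Ass1 (adjusted p = 0.107) and Acod1 (0.164) missed it. Ass1 also missed it without a filter on low counts (adjusted p = 0.0519) and with transcripts summed (0.0561). Without any single library headed LPS+ cre, none of the 6 members and between 4 and 15 genes in all were called, with an edgeR adjusted p of 0.0244, 0.0211 and 0.0233 for Nos2 without replicates 1, 2 and 3, and fold changes of called members that kept their direction. Without any single library headed LPS- cre, 2, 2 and 3 members and 935 to 1178 genes were called, and the log2 of Nos2 was -3.72 without replicate 2 of that group.

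Last, LPS+ f/f was compared with LPS- f/f, the effect of LPS in tlr4f/f cells as headed and the effect of genotype without LPS when exchanged. None of the 6 members was called with edgeR, beside 0% of 14701 genes. At an unadjusted p below 0.05, 3624 of these genes (24.7%) but no member passed. DESeq2 called 467 genes and again no member. Among the members the median log2 fold change was -0.24, against -0.03 over all genes tested. The corresponding medians were -1.05 and 0.03 for LPS+ against LPS- in cre, 5.35 and -0.08 for LPS- cre against LPS- f/f, and 3.44 and -0.02 between the groups headed LPS+. These comparisons share groups and are not independent of each other.

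**Figure D2:**
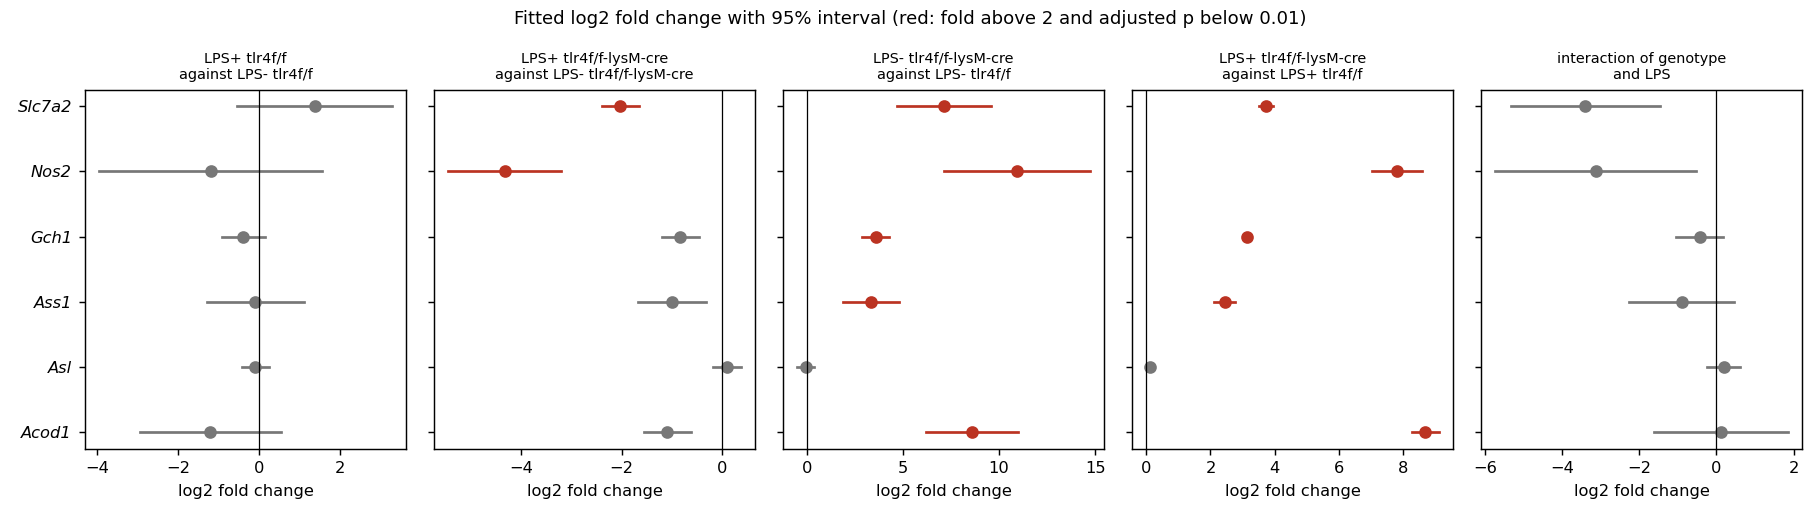
Fitted log2 fold change (point) with its 95% interval (line) for the 6 members in the 4 comparisons and the interaction of genotype and LPS, each with 3 libraries a group; red marks over 2-fold at an adjusted p below 0.01. Asl lies near 0 in every panel, whereas Nos2 and Acod1 reach 10.92 and 8.58 for LPS- cre against LPS- f/f.

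Slc7a2, the arginine transporter, lies on chr8:40862341-40922070 (GRCm38.p6, the assembly of mm10, as for all positions here; plus strand). Its levels were 11.8, 27.5 and 2.11 CPM in LPS- f/f, 2007, 2129 and 1678 CPM in LPS- cre, 36.2, 36.3 and 33.4 CPM in LPS+ f/f and 415, 533 and 463 CPM in LPS+ cre (replicates 1, 2 and 3). No group overlapped another, and the order from low to high was LPS- f/f, LPS+ f/f, LPS+ cre and LPS- cre. Against LPS- f/f, the rise in LPS- cre was 139-fold (log2 7.12 ± 1.01 SE, adjusted p = 0.00333, edgeR). Between the groups headed LPS+, Slc7a2 was 13.3-fold higher in cre (log2 3.73 ± 0.10 SE, adjusted p = 1.72e-10). It was 4.09-fold lower in LPS+ than in LPS- cre (log2 -2.03 ± 0.16 SE, adjusted p = 0.0011), which lost its call without replicate 1, 2 or 3 of LPS+ cre (adjusted p = 0.0157, 0.0142 and 0.0146) and with all 12 libraries in 1 fit (adjusted p = 0.0323). LPS+ against LPS- f/f gave a log2 fold change of 1.37 with a 95% interval of -0.53 to 3.28 (adjusted p = 0.329), although the 3 libraries of each group did not overlap. The long non-coding RNA Gm26584 overlaps Slc7a2 on the opposite strand and had at most 6 counts a library in LPS- f/f and LPS+ f/f, 367 to 569 in LPS- cre and 64 to 111 in LPS+ cre. Whether counting used strand is not given in the sources used here.

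Nos2, which makes nitric oxide from arginine, lies on chr11:78920787-78960226 (plus strand). It was at 2.74, 2.23 and 0.0374 CPM in LPS- f/f, which are 160, 139 and 2 counts. The libraries headed LPS- cre held 2302, 5656 and 1943 CPM, those headed LPS+ f/f 0.545, 0.973 and 0.654 CPM, and those headed LPS+ cre 151.8, 204.1 and 128.9 CPM. Both groups headed f/f were low and overlapped, and the groups headed cre lay above them and apart from each other. Nos2 was 1940-fold higher in LPS- cre than in LPS- f/f (log2 10.92 ± 1.58 SE, 95% interval 7.12 to 14.7, adjusted p = 0.00345), a fold that rests on a denominator of few counts. Between the groups headed LPS+, the fold was 227 in favour of cre (log2 7.83 ± 0.31 SE, adjusted p = 7.24e-06). Of all members it had the largest fall in LPS+ against LPS- cre, 20.1-fold (log2 -4.33 ± 0.47 SE, adjusted p = 0.00249). The value for LPS+ against LPS- f/f was -1.19 with an interval of -3.94 to 1.56 (adjusted p = 0.559).

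Gch1, the first enzyme of tetrahydrobiopterin synthesis, lies on chr14:47153895-47189413 (minus strand). Its levels were 34.9, 34.3 and 20.02 CPM in LPS- f/f, 421, 360 and 290 CPM in LPS- cre, 22.9, 22.1 and 22.4 CPM in LPS+ f/f and 188, 205 and 204 CPM in LPS+ cre. Groups headed f/f overlapped at a low level, and the groups headed cre lay above them and did not overlap. Gch1 rose 11.9-fold in LPS- cre against LPS- f/f (log2 3.57 ± 0.29 SE, adjusted p = 0.000664) and 8.82-fold between the groups headed LPS+ (log2 3.14 ± 0.06 SE, adjusted p = 9.66e-13). It was 1.78-fold lower in LPS+ than in LPS- cre (log2 -0.83 ± 0.15 SE, adjusted p = 0.0112), which is below the fold criterion, and LPS+ against LPS- f/f gave -0.38 (interval -0.92 to 0.15, adjusted p = 0.333). Processed pseudogenes are annotated within the gene, and how reads were shared with them is not given in the sources used here.

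Ass1, which joins citrulline and aspartate, lies on chr2:31470270-31520670 (plus strand). It had 37.5, 24.9 and 8.78 CPM in LPS- f/f, 358, 195 and 169 CPM in LPS- cre, 25.2, 23.1 and 17.6 CPM in LPS+ f/f and 127, 111 and 120 CPM in LPS+ cre. As for Gch1, both groups headed f/f overlapped and both headed cre lay above them without overlap. Ass1 rose 10.1-fold in LPS- cre against LPS- f/f (log2 3.33 ± 0.60 SE, adjusted p = 0.00724) and 5.42-fold between the groups headed LPS+ (log2 2.44 ± 0.13 SE, adjusted p = 2.18e-06). LPS+ against LPS- cre gave 2.01-fold lower levels at an adjusted p of 0.0423, and LPS+ against LPS- f/f gave a log2 of -0.09 (interval -1.29 to 1.11, adjusted p = 0.928).

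Asl, which completes the step from citrulline to arginine by splitting argininosuccinate, lies on chr5:130011258-130024381 (minus strand). It was at 33.9, 46.8 and 46.7 CPM in LPS- f/f, 40.3, 46.5 and 35.1 CPM in LPS- cre, 37.8, 41.4 and 38.6 CPM in LPS+ f/f and 42.1, 43.9 and 42.9 CPM in LPS+ cre. Levels of the groups lay close together, and the groups headed LPS+ were the only pair without overlap. There the log2 fold change was 0.12 ± 0.06 SE (interval -0.0031 to 0.25, adjusted p = 0.0838). Intervals of the other comparisons were -0.51 to 0.36 for LPS- cre against LPS- f/f, -0.18 to 0.37 for LPS+ against LPS- cre and -0.42 to 0.25 for LPS+ against LPS- f/f. The enzymes on either side of argininosuccinate thus had different ranges, since Ass1 per Asl (CPM per kb of transcript within a library) was 0.186 to 1.09 in LPS- f/f, 4.15 to 8.79 in LPS- cre, 0.451 to 0.660 in LPS+ f/f and 2.50 to 2.99 in LPS+ cre.

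Acod1, the enzyme that makes itaconate, lies on chr14:103047012-103056573 (plus strand). Levels were 42.3, 26.3 and 4.60 CPM in LPS- f/f, 9274, 11730 and 7264 CPM in LPS- cre, 11.1, 12.2 and 8.28 CPM in LPS+ f/f and 4329, 4816 and 3995 CPM in LPS+ cre. Both groups headed f/f were low and overlapped, and every library headed cre lay far above them, with no overlap between LPS- and LPS+. Acod1 alone took 0.597% to 0.822% of the counts kept, 1 transcript per gene, in the libraries headed LPS- cre and 0.386% to 0.456% in those headed LPS+ cre, where its length-scaled mean ranked 12 and 18 among the 43131 genes. It rose 382-fold in LPS- cre against LPS- f/f (log2 8.58 ± 0.995 SE, adjusted p = 0.00175) and 418-fold between the groups headed LPS+ (log2 8.71 ± 0.18 SE, adjusted p = 5.29e-09). LPS+ against LPS- cre gave 2.13-fold lower levels (log2 -1.09 ± 0.20 SE), with an adjusted p of 0.0103 that missed the criterion. For this value the adjusted p ranged over the alternatives from 9.32e-07 in DESeq2 to 0.164 in edgeR with all 12 libraries in 1 fit, and over fits leaving out 1 library from 0.00355 (without replicate 3 of LPS- cre, log2 -1.27) to 0.0673 (without replicate 3 of LPS+ cre). In LPS+ against LPS- f/f the value was -1.20 (interval -2.93 to 0.54, adjusted p = 0.348).

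For LPS- cre against LPS- f/f, the calls of Nos2, Ass1 and Slc7a2 depended on single libraries, while those of Gch1 and Acod1 held without each of the 6. Nos2 and Ass1 kept their call only without replicate 3 of LPS- f/f (adjusted p = 0.00189 and 0.00802), and leaving out any other library gave an adjusted p of up to 0.0188 and 0.0312. Slc7a2 kept it without replicate 2 or 3 of LPS- f/f (adjusted p = 0.00647 and 0.00191) and reached up to 0.0148 otherwise. Without a filter on low counts, Nos2, Ass1 and Slc7a2 missed it too (adjusted p = 0.0191, 0.0202 and 0.0123). Their log2 fold changes stayed between 10.3 and 11.5 for Nos2, 2.93 and 3.83 for Ass1 and 6.60 and 8.10 for Slc7a2. Between the groups headed LPS+, 5 members were called without each library in turn. Acod1 was at a log2 of 9.24 without replicate 1 of LPS- f/f.

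For LPS+ against LPS- f/f, values moved with single libraries of LPS- f/f. Without replicate 3, the library of that group with the lowest sum of LPS response genes, the log2 was -1.77 for Nos2 (adjusted p = 0.0257), -1.69 for Acod1 (adjusted p = 0.0205), -0.60 for Gch1 (adjusted p = 0.00863) and 0.86 for Slc7a2 (adjusted p = 0.177), and none of them met both criteria. Without replicate 2, Slc7a2 was at 2.36 (adjusted p = 0.115), and without replicate 1, Nos2 was at -0.63 (adjusted p = 0.793) and Acod1 at -0.52 (adjusted p = 0.677).

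Promoter sequences are shown for Acod1, Gch1 and Ass1, the 3 of the 6 members matched in the RefSeq (GRCm38.p6) promoters, to set beside their rise, and the 250 bases before the start of transcription are printed 5′ to 3′ on the strand of the gene. Capitals mark a match to the NF-kappa-B site, to GAAA, any 2 bases and GAAA (interferon response), TTCNNNGAA (STAT), TTGCNNAA (C/EBP) or TATAAA on either strand. They are chr14:103046762-103047011 (plus strand) for Acod1, chr14:47189414-47189663 (minus strand) for Gch1 and chr2:31470020-31470269 (plus strand) for Ass1.
Acod1: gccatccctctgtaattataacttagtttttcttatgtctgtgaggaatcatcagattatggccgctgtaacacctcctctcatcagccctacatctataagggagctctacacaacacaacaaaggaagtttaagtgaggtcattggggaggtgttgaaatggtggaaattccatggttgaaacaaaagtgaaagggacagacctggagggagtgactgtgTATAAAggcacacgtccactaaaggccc
Gch1: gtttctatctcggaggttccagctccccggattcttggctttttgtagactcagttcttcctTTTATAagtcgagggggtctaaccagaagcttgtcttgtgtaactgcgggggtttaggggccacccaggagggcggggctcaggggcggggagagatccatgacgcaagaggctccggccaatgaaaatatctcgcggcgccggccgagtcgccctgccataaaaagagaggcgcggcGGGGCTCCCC
Ass1: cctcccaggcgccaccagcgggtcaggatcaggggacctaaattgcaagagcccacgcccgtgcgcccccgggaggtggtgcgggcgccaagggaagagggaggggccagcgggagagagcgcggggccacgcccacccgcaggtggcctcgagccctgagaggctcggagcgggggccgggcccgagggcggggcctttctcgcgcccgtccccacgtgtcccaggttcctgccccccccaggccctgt

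Acod1 had 44.4% G and C and 2 CG pairs in this window, Gch1 59.2% and 17, and Ass1 75.6% and 23, where the median of 32851 promoters was 52.4%. A TATAAA began 28 bases before the start of Acod1, and 12.4% of all promoters held this motif on either strand within 250 bases. In Gch1 the last 10 bases before the start matched the NF-kappa-B site on both strands, which 7.25% of promoters held, and TATAAA matched the minus strand at -188. Ass1 matched none of the motifs in capitals. It held GGGCGG at -63 (32.7% of promoters) and CACGTG at -36 (6.02%), whereas Gch1 held GGGCGG at -118 and -105 and CCAAT at -70 (33.8%), and Acod1 held CCAAT on the minus strand at -107 and GAGGAA (PU.1) at -208 (23.3%). Motifs did not overlap. The interferon response motif, TTCNNNGAA and TTGCNNAA occurred in 2.98%, 7.02% and 9.56% of promoters and in none of these windows. A match describes letters only and was not tested for binding.

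Scaled to transcript length, the order of the members turned over between groups (the plot of length-scaled levels). In LPS- f/f it ran from Asl (26.3 CPM per kb) over Ass1, Gch1, Acod1 and Slc7a2 to Nos2 (0.401 CPM per kb), and every neighbour overlapped the next. LPS+ f/f gave Asl (24.3 CPM per kb), Ass1, Gch1, Slc7a2, Acod1 and Nos2 (0.174 CPM per kb), in which only Slc7a2 and Acod1 overlapped. Under LPS- cre, Acod1 led at 3641 CPM per kb, followed by Nos2 (793), Slc7a2 (251), Ass1 (147), Gch1 (129) and Asl (25.2), with overlap of Slc7a2 and Ass1, and of Ass1 and Gch1. Under LPS+ cre it was Acod1 (1692 CPM per kb), Ass1 (73.2), Gch1 (72.0), Slc7a2 (60.9), Nos2 (38.8) and Asl (26.6), where Ass1, Gch1 and Slc7a2 overlapped each other. Nos2 was the member whose place differed most between these groups, at rank 2 in the former and rank 5 in the latter.

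**Figure D3:**
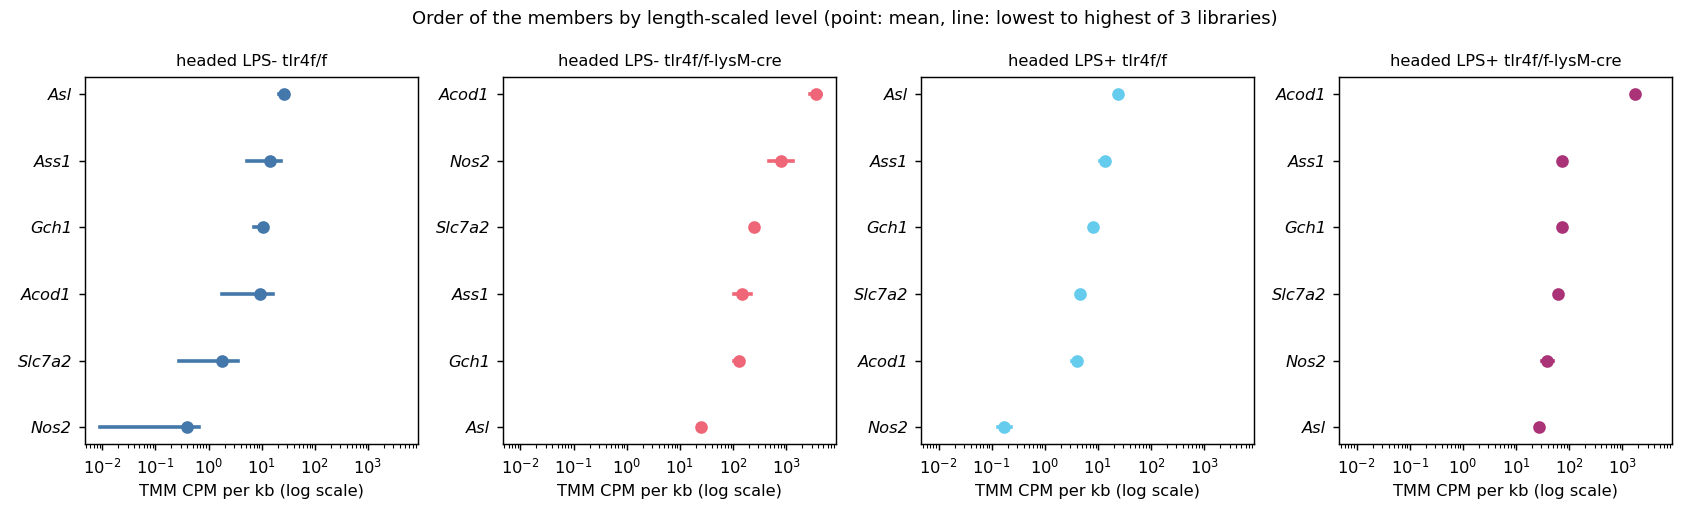
Members ordered within each group as headed by level per length (TMM-scaled CPM per kb of transcript, logarithmic axis); the point is the mean and the line runs from the lowest to the highest of 3 libraries. Asl is first in both groups headed f/f and Acod1 in both headed cre.

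Nos2 relative to other members also differed between the groups headed cre. Within a library, Nos2 per Acod1 (both in CPM per kb) was 0.154 to 0.300 in LPS- cre and 0.0201 to 0.0263 in LPS+ cre. Nos2 per Slc7a2 was 2.13 to 4.92 against 0.516 to 0.710, Nos2 per Gch1 3.63 to 10.4 against 0.419 to 0.661, and Nos2 per Ass1 2.52 to 11.4 against 0.420 to 0.723. Acod1 per Gch1, by contrast, was 23.6 to 34.8 and 20.9 to 25.1, which overlapped. With 3 libraries a side an exact two-sided permutation test cannot go below a p of 0.10, so these ratios are given as descriptions.

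**Figure D4:**
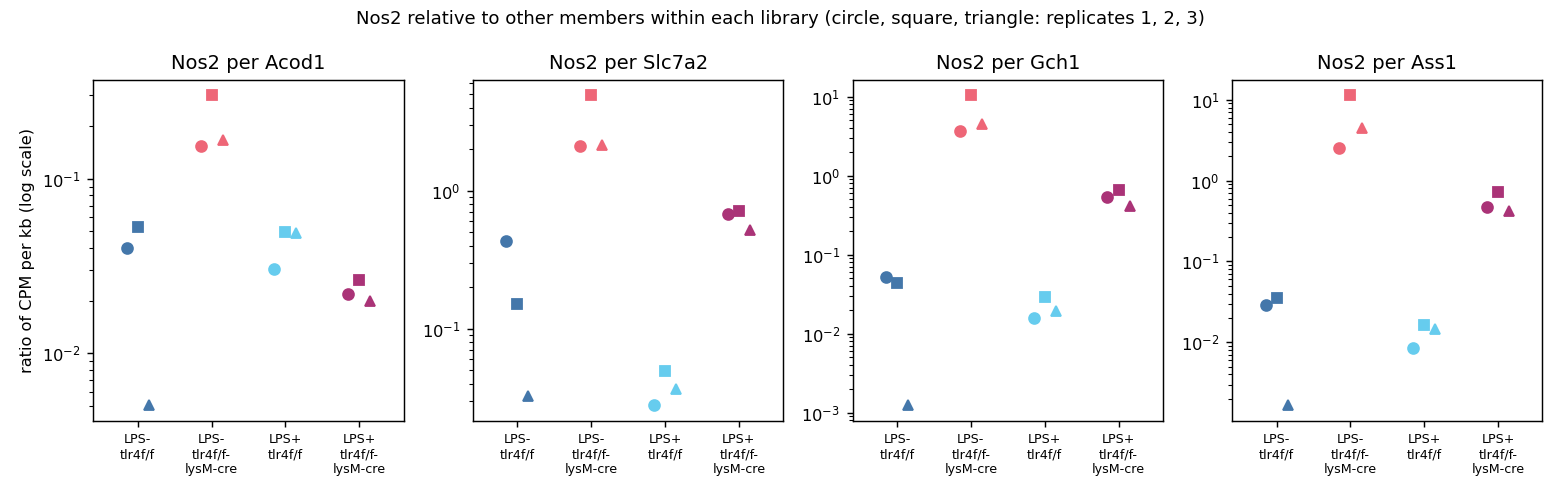
Nos2 divided by Acod1, Slc7a2, Gch1 or Ass1 within each library, both in CPM per kb, on a logarithmic axis with the groups as headed; circles, squares and triangles are replicates 1, 2 and 3. Each ratio is higher in the 3 libraries headed LPS- cre than in any other library.

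The interaction of genotype and LPS asks whether the difference between LPS+ and LPS- differs between genotypes, and its value is the same under both readings of the headings. None of 6 members met the criteria, beside 1.04% of 15775 genes. Slc7a2 came nearest, with a log2 of -3.39 ± 0.87 SE (interval -5.33 to -1.46, adjusted p = 0.0434), and was the only member past a fold above 2 and an adjusted p below 0.05, beside 3.99% of genes. DESeq2 and limma voom gave Slc7a2 an adjusted p of 0.000343 and 0.00743, and leaving out single libraries gave 0.00491 (without replicate 3 of LPS- f/f) to 0.118 (without replicate 1 of LPS+ cre), below 0.05 only without replicate 2 or 3 of LPS- f/f. Nos2 had -3.13 ± 1.17 SE (adjusted p = 0.137) and Acod1 0.11 ± 0.79 SE (adjusted p = 0.952). At an unadjusted p below 0.05, 23.5% of genes passed, and among the members Nos2 and Slc7a2 did.

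Other genes of these pathways were called in both directions (the plot of pathway lists). Of 79 genes in 7 lists, 77 were in the table and 4 (Otc, Cps1, Agxt2 and Gucy1a2) had at most 3 counts in every library. For LPS- cre against LPS- f/f, 2 of 65 tested were called higher, beside 9.25% of all genes, and 7 lower, beside 7.81%, with a median log2 of -0.28. Pde5a, a cyclic GMP phosphodiesterase, had the largest rise (log2 3.54 ± 0.64 SE, adjusted p = 0.00709), and Slc3a2, the heavy chain of amino acid transporters, rose from 222 ± 59.6 to 601 ± 61.8 CPM (adjusted p = 0.00661). Among the genes called, Nostrin, which binds endothelial nitric oxide synthase, and Idh1, a cytosolic isocitrate dehydrogenase, had the largest falls, with log2 -2.27 ± 0.28 SE (adjusted p = 0.00195) and -1.77 ± 0.26 SE (adjusted p = 0.00357).

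Between the groups headed LPS+, 4 of the 65 pathway genes were called higher in cre, beside 10.8% of all genes, and 5 lower, beside 10.9%, with a median log2 of -0.10. Slc13a3, a carrier of dicarboxylates, was 17.7-fold higher (3.27 ± 0.61 against 58.5 ± 9.37 CPM, SD, n = 3, adjusted p = 7.14e-08) and Slc7a7, a cationic amino acid transporter, 3.07-fold higher (adjusted p = 1.14e-07). Paox, a polyamine oxidase, and Ddah2, which degrades methylated arginine, were lower by log2 -1.62 ± 0.13 SE (adjusted p = 3.5e-07) and -1.54 ± 0.19 SE (adjusted p = 1.78e-05). For LPS+ against LPS- cre, where 2.42% of all genes were called higher and 3.65% lower, 2 of 64 were called higher, Padi2 (a peptidylarginine deiminase, log2 2.14 ± 0.27 SE, adjusted p = 0.00344) and Idh1 (1.56 ± 0.13 SE, adjusted p = 0.00126), and 1 lower, Slc7a7 (-1.16 ± 0.13 SE, adjusted p = 0.00283). No pathway gene was called with edgeR for LPS+ against LPS- f/f or in the interaction.

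By list, the 5 tetrahydrobiopterin genes tested other than Gch1 had a median log2 of -0.32 in LPS- cre against LPS- f/f, beside -0.08 over all genes, with 1 called lower (Spr). Their median between the groups headed LPS+ was -0.35, beside -0.02, with none called. Of 10 nitric oxide synthases and regulators listed, 6 regulators and neither synthase (Nos1, Nos3) were tested. Among the 6, 1 was called lower in the former comparison (Nostrin) and 3, or 50%, in the latter (Nostrin, Ddah2 and Nos1ap), beside the 10.9% of all genes given above. Of 6 genes of arginine transport, 1 was called in each direction in the former (Slc3a2 higher, Slc7a6 lower) and 2, or 33.3%, were called higher in the latter (Slc3a2 and Slc7a7), beside 10.8%. Of 12 genes listed for the urea cycle and other arginine use, 8 were tested. Otc, Cps1, Nags and Agmat had at most 6 counts in any library and were not, so the 8 stand for other arginine use only. These 8 had medians of -0.83 and -0.87, the farthest from 0 of the 7 lists in both comparisons, with 1 called lower in each (Prmt5 and Padi2). That was 12.5% of the 8 tested, beside 7.81% and 10.9% of all genes. Of 4 genes of nitric oxide signalling, 1 was called in each direction in the former (Pde5a higher, Cbr1 lower) and none in the latter. Other nitric oxide synthases were scarce, with Nos1 at no more than 31 and Nos3 at no more than 11 counts in any library. Among 19 genes of citrate and itaconate metabolism the median was -0.03 in the former and 0.01 in the latter comparison, with 1 called in each, Idh1 (lower) and Slc13a3 (higher). The 17 genes of ornithine, proline and polyamine metabolism had medians of -0.26 and -0.03, with 1 called lower in the former and 1 in each direction in the latter.

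**Figure D5:**
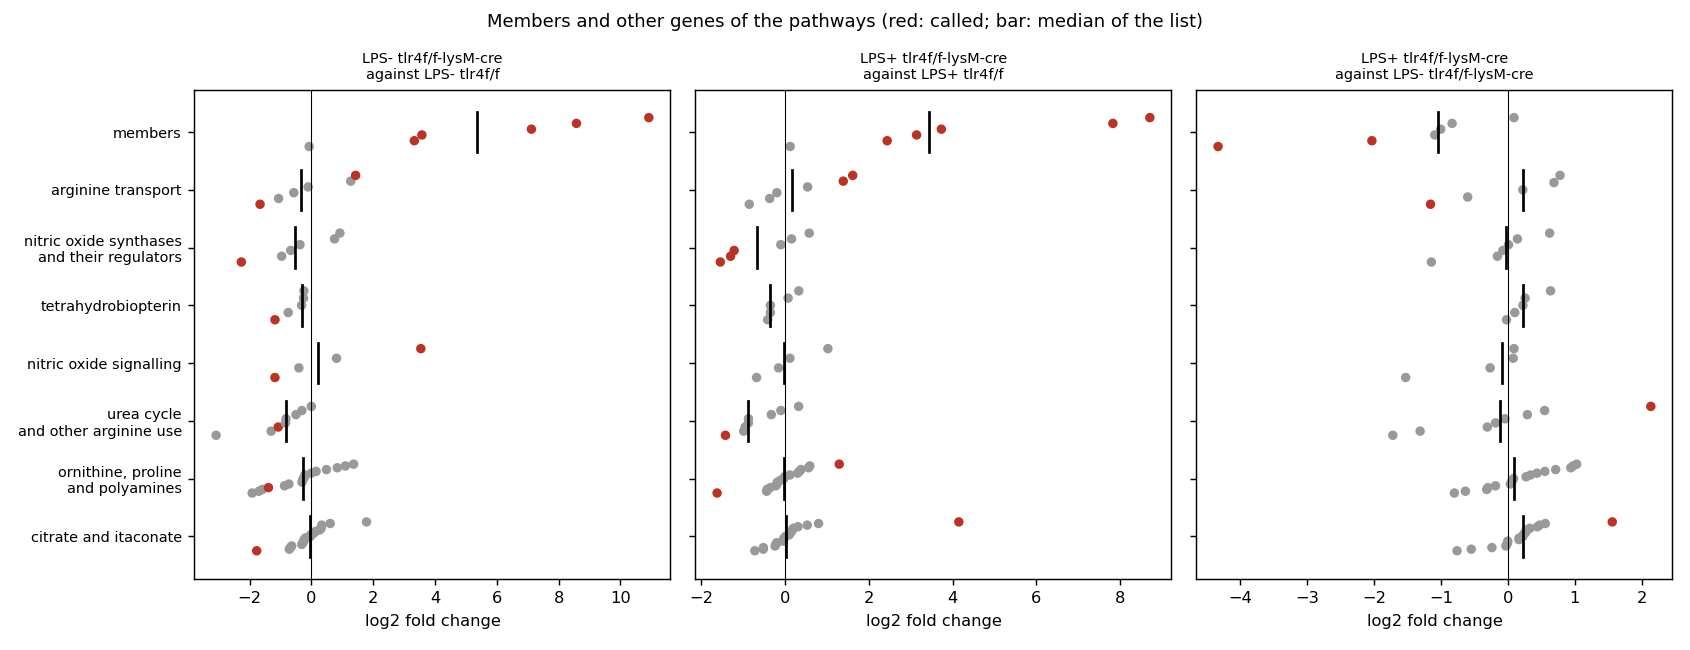
Log2 fold change of each tested gene (point) in the members and the 7 pathway lists for 3 comparisons, named by heading; red points were over 2-fold at an adjusted p below 0.01, and the bar is the median of the list. In these 3 comparisons the members' medians of 5.35, 3.44 and -1.05 lie farther from 0 than those of the other lists. For LPS+ against LPS- f/f, which is not drawn, the median was -0.24 for the members and -0.52 for arginine transport.

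Genes with the pattern most like each member over the 12 libraries were sought by the root mean square difference of log2 CPM, each gene centred on its own mean, among 12668 genes. The nearest to Nos2 were Edn1 (0.92) and Il12b (1.07), to Slc7a2 Fzd1 (0.60) and Bcl2a1d (0.68), to Gch1 Pnp (0.15) and Mndal (0.17), and to Ass1 Kcnab1 (0.28) and Maff (0.29). Those nearest to Asl were Sidt2 (0.04) and Renbp (0.08) and to Acod1 Gbp5 (0.40) and Socs3 (0.57). Among the members themselves, Ass1 and Gch1 were closest (0.42), followed by Nos2 and Acod1 (1.34), while Asl and Nos2 were farthest apart (5.26). All points come from the same 12 libraries, so these distances describe them only.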

How the data were processed

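RNA of 12 BMDM libraries was sequenced. The study's paper describes poly(A) RNA sequencing, whereas the labels name both poly(A) and rRNA-depleted RNA. The submitters' processing notes name Trimmomatic 0.36, FastQC, HISAT2, HTSeq and mm10, and the strand setting is not given in the sources used here. The authors deposited raw counts per transcript (115140 rows), summing to 116692230 to 195126978 per library. Per gene, the transcript with the highest total was kept, which avoids counting shared reads more than once. Low counts were filtered (filterByExpr), scaled by TMM and tested with edgeR 4.0.16 (quasi-likelihood, robust, R 4.3.3) on the 6 libraries of each comparison and, for the interaction, on all 12, with Benjamini-Hochberg adjustment over all genes tested. A gene was called at a fold above 2 and an adjusted p below 0.01. The test was checked on simulated data, and the outcome is not reported here. DESeq2 1.42.0, limma 3.58.1 voom, other filters and scaling, and leaving out each library were alternatives. No libraries were duplicates. Intervals are 95%, and counting depth limits the precision of low Nos2 values. Some results are not reported here.

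Members and lists were chosen with earlier results of these data known. The genes named were the members, the 2 pathway genes with the largest rise and the 2 with the largest fall among those called in each comparison, pathway genes at 3 counts or fewer, Tlr4, Lyz2, Il1b, Tnf and Il6 to check headings, and the 2 genes nearest to each member. Nos1, Nos3, Gm26584, Spr, Nos1ap, Slc7a6, Prmt5, Cbr1, Nags, Agmat, Pecam1, Kdr and Vwf were added after their values were seen. So were Flt3 and Siglech, named for their low counts. Lymphocyte and mast cell and basophil markers summed to 0.274 to 2.09 and 0.249 to 3.68 CPM over the libraries, with none called.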

Additional observations from a re-analysis of the deposited data

Results flagged for a closer look

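Slc7a2 passed an adjusted p of 0.05, but not the 0.01 used for calls, in the interaction of genotype and LPS, with a log2 value of -3.39 ± 0.87 SE (adjusted p = 0.0434, edgeR's quasi-likelihood test over 12 libraries). Leaving out single libraries gave an adjusted p of 0.00491 to 0.118, below 0.05 only without replicate 2 or 3 of LPS- f/f. In means of 3 libraries, Slc7a2 went from 13.8 ± 12.8 to 1938 ± 234 CPM between the groups headed LPS- and from 35.3 ± 1.67 to 470 ± 59.8 CPM between those headed LPS+.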

How the results depend on the processing

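The number of members called was 0 for LPS+ against LPS- f/f under every alternative and without each library (0 to 0), apart from the exchange of headings, which gives it the 5 of LPS- cre against LPS- f/f. For LPS+ against LPS- cre (2 members) it was 4 with DESeq2, 1 with all 12 libraries in 1 fit, 4 at an adjusted p below 0.05, 5 with the headings exchanged, and 0 to 3 without single libraries. For LPS- cre against LPS- f/f (5) it was 2 without a filter on low counts, 0 with the headings exchanged and 2 to 5 without single libraries, and between the groups headed LPS+ (5) it was 2 with the headings exchanged and 5 to 5. In the interaction (0) it was 1 with DESeq2, 1 with voom, 1 at an adjusted p below 0.05 and 0 to 1 without single libraries.

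Over all genes, LPS+ against LPS- f/f gave 0 calls, but 467 with DESeq2, 28 with voom, 34 without a filter, 74 with all 12 libraries in 1 fit, 92 at an adjusted p below 0.05 and 0 to 184 without single libraries (184 without replicate 3 of LPS- f/f). LPS+ against LPS- cre gave 865, then 2002 with DESeq2, 1983 at 0.05 and 4 to 1178 without single libraries. LPS- cre against LPS- f/f gave 2497, then 3992 with DESeq2, 4251 with all 12 libraries, 4056 at 0.05 and 1038 to 1682. Between the groups headed LPS+ there were 3161, then 2045 with all 12 libraries and 3017 to 3152. The interaction gave 164, then 657 with DESeq2, 629 at 0.05 and 10 to 306.

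Values near 0 turned sign: Asl in LPS- cre against LPS- f/f was 0.0082 with DESeq2 and 0.0082 with its size factors (-0.21 to 0.04694 without single libraries, including 0.0037 without replicate 2 of LPS- f/f and 0.04694 without replicate 3 of LPS- cre), Asl in LPS+ against LPS- cre was -0.02 to 0.19, Ass1 in LPS+ against LPS- f/f -0.49 to 0.42, and the interaction of Acod1 -0.55 to 0.61. Acod1 in LPS+ against LPS- cre, which missed its call at 0.0103, passed with DESeq2, voom (adjusted p = 0.00516), without a filter (0.00653) and with at least 10 counts in every library (0.00819), and missed it with DESeq2's size factors in edgeR (0.0102), transcripts summed (0.0124), the replicate block (0.0217), with all 12 libraries in 1 fit (0.164) and without any single LPS+ cre library (0.0524 to 0.0673). The cause was not tested.

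The labels do not say that replicate numbers pair libraries, and not every same-numbered pair had correlated deviations (-0.0379 to 0.472 over 18 pairs, 5 above 0.1). Between the groups headed LPS-, replicates 1 and 2 correlated at 0.472 and 0.34 with their own number and at -0.491 and -0.267 crossed, and replicate 3 at 0.0143, so pairing there cannot be told from these values. Not every library correlated best with its own number (19 of 36, each among 3 choices). With a replicate block, LPS+ against LPS- cre gave 212 genes, Ass1 in LPS+ against LPS- f/f was 0.12 and the interaction of Acod1 was -0.06265. Few counts of Nos2 in the groups headed tlr4f/f limit its fold changes.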
